A study of Mus musculus with 47 samples.

Results

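Cyp2b9, Cyp2b10 and Cyp2b13 are 3 mouse cytochrome P450 genes of the Cyp2b family, chosen by name among the 21877 genes tested, with every array probe that carries one of these gene names. Cyp2b9 and Cyp2b13 have 1 probe each and Cyp2b10 has 2, so 4 probes describe the family. The 47 arrays came from whole livers of 6-month-old Pxr+/+ and Pxr-/- littermates of both sexes, born to Pxr+/- parents on the C57BL/6J background. At 5 weeks of age the sexes and genotypes were caged apart. PXR, encoded by Nr1i2, is a nuclear receptor that induces drug-metabolising enzymes in the liver. Control mice (Cont) drank water alone and treated mice (ATB) received vancomycin at 0.5 g/L with neomycin and ampicillin, each at 1 g/L, in it for 2 weeks, and all were killed at ZT6, which is 6 h after lights on. Each of the 8 combinations of sex, genotype and treatment had 6 mice, except male Pxr-/- Cont with 5. Each group was housed in 2 cages, and the cage of a given mouse was not known here, so p-values treat the mice as independent. The knockout affects the whole body and not only the liver.

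Cyp2b enzymes hydroxylate steroids, fatty acids and drugs in the endoplasmic reticulum of hepatocytes. Cyp2b10 is the textbook target of CAR, the constitutive androstane receptor encoded by Nr1i3, which leaves the cytoplasm when activated by phenobarbital-like compounds, binds DNA together with the retinoid X receptor and turns the gene on. PXR can bind many of the same DNA elements, so that CAR and PXR share part of their target genes. Cyp2b9 and Cyp2b13 are better known as female-predominant genes of the adult mouse liver, held down in males by the pulsatile male pattern of growth hormone.

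The probes are shown because paralogous genes of this family are alike in sequence, and a probe can pick up more than the gene it is named for. All 4 are 60 bases long and lie on the plus strand of chromosome 7 in the mm9 build. The distal Cyp2b10 probe starts at transcript position 1756 (chr7:26711522-26711581), the internal Cyp2b10 probe at position 1094 (chr7:26702056-26702115), the Cyp2b9 probe at position 1804 (chr7:26995607-26995666) and the Cyp2b13 probe at position 1565 (chr7:26880905-26880964). The array design lists a Cyp2b10 transcript as well as the Cyp2b9 transcript for the Cyp2b9 probe, so signals of these paralogs may not be separate, and the levels and changes of Cyp2b9 and Cyp2b10 below are not independent measurements where the probes bind the same RNA. The end of the distal Cyp2b10 probe and the beginning of the Cyp2b9 probe share a 12-base stretch, in capitals, with 1 difference (A11T, the distal Cyp2b10 base first, counted from the first capital). Below are the last 30 bases of the distal Cyp2b10 probe and the first 30 bases of the others.
Cyp2b10 distal: gtgctaatggactctgtaTAAGGTCTGAAT
Cyp2b9: TAAGGTCTGATTtctatgtctacagacttg
Cyp2b10 internal: tcagagattttcagatcttatacctattgg
Cyp2b13: agagctgctggaaactagactgtatgttgc

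The region just before the transcription start, from RefSeq (GRCm38.p6, plus strand), shows how the family divides by sequence. The 250 bases upstream of Cyp2b9 and Cyp2b13 were 99.2% identical and differed by 2 substitutions (T48C and C104T, the Cyp2b9 base first, counted from the first base of the window). Cyp2b10 shared 71.4% of aligned positions with each of them. Capitals mark the nuclear receptor half-site AGGTCA, searched on both strands.
Cyp2b10 (chr7:25897408-25897657): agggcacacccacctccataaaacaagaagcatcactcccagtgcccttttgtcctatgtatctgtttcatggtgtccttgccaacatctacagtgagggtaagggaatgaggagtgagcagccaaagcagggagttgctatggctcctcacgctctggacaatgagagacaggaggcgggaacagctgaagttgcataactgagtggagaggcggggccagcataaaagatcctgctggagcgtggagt
Cyp2b9 (chr7:26173159-26173408): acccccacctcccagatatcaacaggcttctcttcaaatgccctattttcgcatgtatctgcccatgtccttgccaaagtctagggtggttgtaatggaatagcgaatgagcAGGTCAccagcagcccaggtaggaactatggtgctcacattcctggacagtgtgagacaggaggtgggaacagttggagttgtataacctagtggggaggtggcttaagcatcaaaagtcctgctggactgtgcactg
AGGTCA stood at bases 138 to 133 before the start in Cyp2b9 and, at the same place, in Cyp2b13 (chr7:26061245-26061494), and was not in the Cyp2b10 window. It was present in 4607 of the 32851 promoter windows of this length. The STAT5 element TTCNNNGAA, also searched on both strands, was in none of the 3 windows and in 7.02% of all. The enhancer through which CAR is known to act on Cyp2b10 lies farther upstream than this window.

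Between 31087 and 34477 probes per array stood well above background, and none of the 188 member spots was saturated or flagged as non-uniform. The hepatocyte markers Alb, Ttr and Apoa1 and the other 5 of the list were measured in every mouse, with a list mean between 16.12 and 16.56 log2 over all mice. Nr1i2 itself has 1 probe, late in the transcript at position 2157, and its mean was 11.65 log2 in male Pxr+/+ Cont and 11.37 in male Pxr-/- Cont, and 11.98 and 11.68 in the corresponding females. Whether the knockout removes the sequence under this probe was not known here, so it does not check the genotype labels. Because the samples were whole liver, fewer cells of a type and less RNA per cell cannot be told apart.

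Signals below are normalized log2 values. All 3 genes were far higher in females than in males in every group. In the female groups, Cyp2b9 had means between 15.59 and 15.73, the distal Cyp2b10 probe between 15.04 and 15.35 and Cyp2b13 between 13.58 and 14.13. The internal Cyp2b10 probe read lower in these groups, with means between 8.39 and 9.43. In males, Cyp2b9 had a mean of 9.66 ± 0.90 (SD, n = 6) in Pxr+/+ Cont, 8.80 ± 0.49 (n = 5) in Pxr-/- Cont, 7.19 ± 0.47 (n = 6) in Pxr+/+ ATB and 7.12 ± 0.86 (n = 6) in Pxr-/- ATB. The distal Cyp2b10 probe followed a similar order in males, with 10.71 ± 0.67, 10.08 ± 0.68, 7.60 ± 0.65 and 8.22 ± 1.07 in the same 4 groups, except that its lowest mean was in Pxr+/+ ATB. Neighbouring groups in these orders (Pxr+/+ Cont and Pxr-/- Cont, or both ATB groups) did not pass the test of their difference, whereas Cont and ATB of one genotype did.

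**Figure D1:**
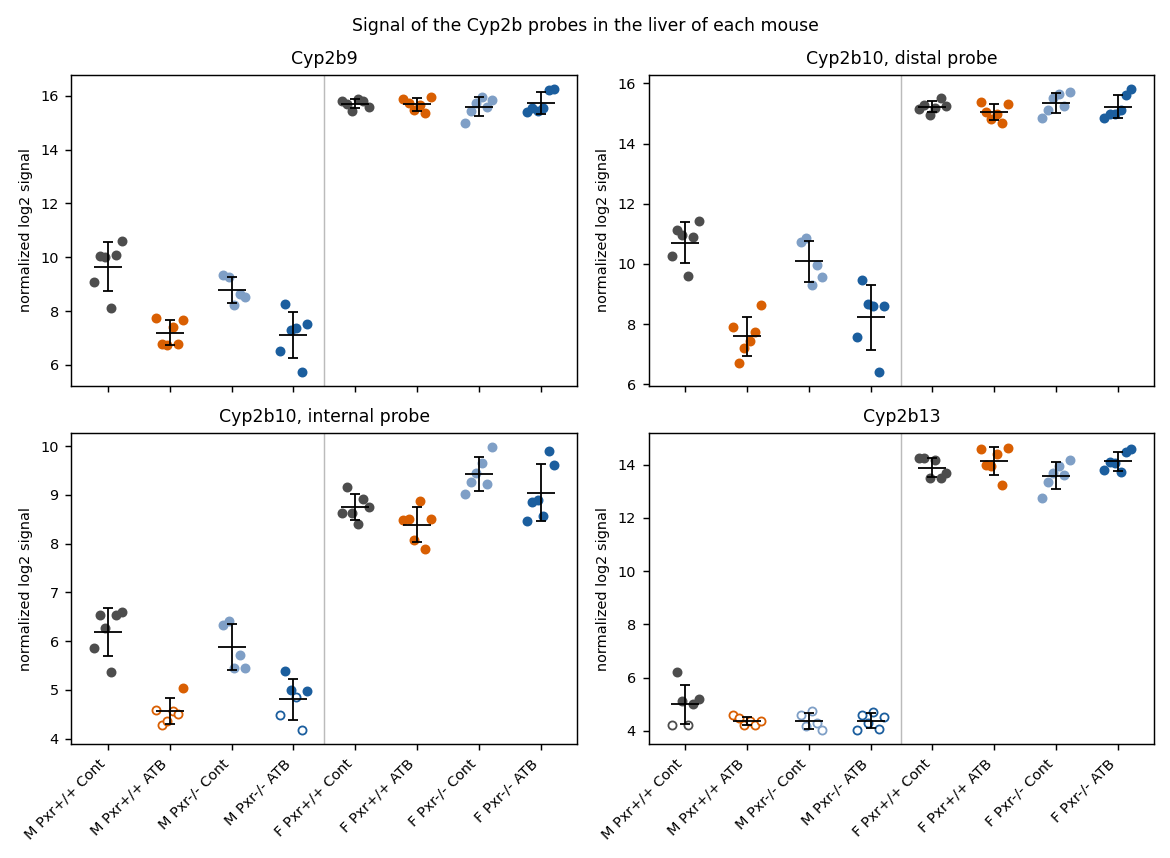
Normalized log2 signal (vertical axis) of the 4 Cyp2b probes in each mouse (points), by sex, genotype and treatment (horizontal axis), with group mean and SD (black). Open points were not well above background. Females lie above males for every probe, and within males the ATB groups lie below the Cont groups for Cyp2b9 and both Cyp2b10 probes.

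The first comparison asked how the family differed between ATB and Cont in male Pxr+/+ mice. Cyp2b10 and Cyp2b9 showed the largest and the next largest fall of all 21877 genes tested. On the distal probe, Cyp2b10 ranged from 9.59 to 11.42 in Cont (median 10.93) and from 6.70 to 8.62 in ATB (median 7.57). Every ATB male was below every Cont male. Its level fell by 3.11 on the log2 scale (SE 0.33, 95% CI -3.78 to -2.44), an 8.63-fold lower signal, with a limma adjusted p of 5.48e-08.

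Cyp2b9, a steroid hydroxylase, ranged from 8.12 to 10.62 in male Pxr+/+ Cont (median 10.03) and from 6.76 to 7.76 in ATB (median 7.10), again without overlap. It fell by 2.46 on the log2 scale (SE 0.31, 95% CI -3.08 to -1.85), 5.51-fold, with a limma adjusted p of 2.21e-06. The internal Cyp2b10 probe ranged from 5.37 to 6.59 in Cont and from 4.28 to 5.04 in ATB and fell by 1.63 (SE 0.23, limma adjusted p 4.22e-05). Only 1 of 6 ATB males was well above background on this probe, against 6 of 6 Cont males, so its fold change is compressed at the low end. With background-subtracted processed signals the same probe fell by 3.99.

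Cyp2b13 was near the limit of detection in males. It was well above background in 4 of 6 male Pxr+/+ Cont mice and in 0 of 6 male Pxr+/+ ATB mice, with means of 5.00 ± 0.74 and 4.37 ± 0.15 (SD, n = 6). Against the lowest signal that counted as above background on the ATB arrays, the Cont mean, which includes mice not above background, was 1.25-fold higher. The difference did not pass (limma adjusted p 0.174). The background-subtracted signals put it past the threshold (limma adjusted p 0.0116). The 4 Cont males with a Cyp2b13 signal were also the 4 with the highest Cyp2b9 and Cyp2b10 signals. By the call rule (adjusted p of at most 0.05 and a fold over 1.2), 2 of the 3 genes were called lower, where 0.165% of all genes were called lower in this comparison, and 0.777% with quantile normalization.

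The fall was also present without PXR. In male Pxr-/- mice, the distal Cyp2b10 probe read 9.31, 9.57, 9.97, 10.71 and 10.86 in the 5 Cont mice and ranged from 6.42 to 9.46 in the 6 ATB mice (median 8.61). One ATB male, at 9.46, lay above the lowest Cont male, and the other 5 lay below all Cont males. Cyp2b10 fell by 1.87 (SE 0.35, 95% CI -2.57 to -1.16), 3.64-fold, with a limma adjusted p of 0.0134, and was again the gene with the largest fall of all genes tested. Cyp2b9 read 8.23, 8.52, 8.62, 9.27 and 9.34 in Cont and ranged from 5.75 to 8.25 in ATB, with 1 ATB male just above the lowest Cont male. It fell by 1.68 (SE 0.32, 95% CI -2.32 to -1.03), 3.20-fold, with a limma adjusted p of 0.0170, and had rank 3 among all falls. In this genotype 2 of the 3 genes were called lower, against 0.0594% of all genes, and 0.165% with quantile normalization.

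The calls in Pxr-/- males depended on which mice and groups were fitted. Fitted on the compared groups alone, the adjusted p was 0.0840 for Cyp2b10 and 0.0837 for Cyp2b9 (limma). Leaving out Cont replicate 2, Cont replicate 3 or ATB replicate 1 raised it for Cyp2b10 to 0.0863, 0.0737 and 0.0518, and for Cyp2b9 to 0.103, 0.0737 and 0.0540 (limma), and leaving out ATB replicate 5 raised it to 0.0717 for Cyp2b9. The direction held in each wash batch, the group of slides washed together, with differences of -2.22, -1.04 and -3.15 for the distal Cyp2b10 probe and -1.95, -0.98 and -2.77 for Cyp2b9. The internal Cyp2b10 probe did not overlap between Cont (5.44 to 6.41) and ATB (4.18 to 5.38), yet its difference of -1.06 missed the threshold (limma adjusted p 0.0740). Cyp2b13 was well above background in 0 of 5 Cont and 0 of 6 ATB males of this genotype.

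**Figure D2:**
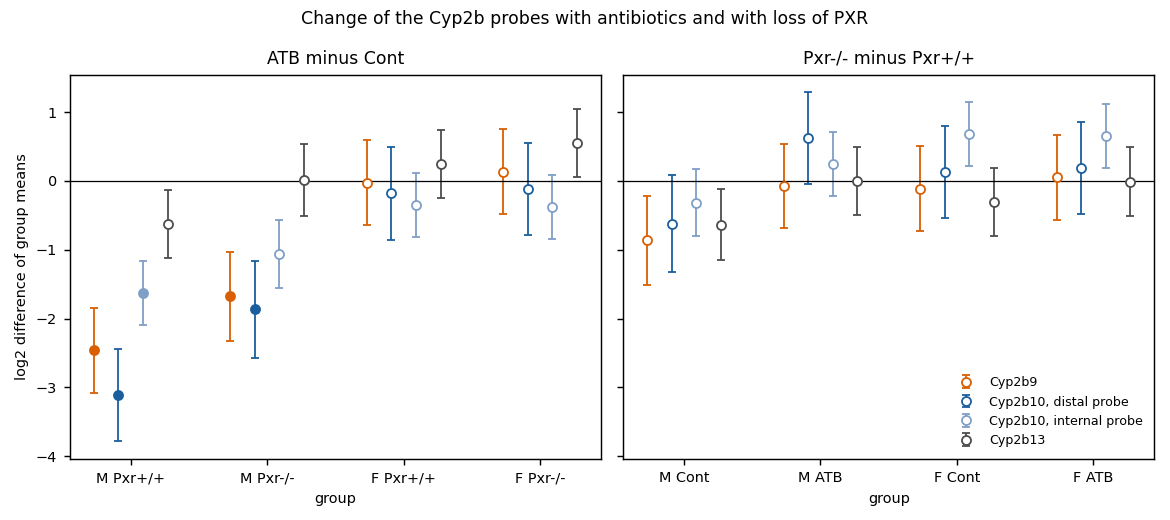
Log2 differences with 95% confidence intervals (vertical axis) for ATB against Cont in 4 groups (left) and for Pxr-/- against Pxr+/+ in 4 groups (right), with 1 colour per probe. Filled points passed the call rule. All filled points belong to Cyp2b9 and Cyp2b10 in males given ATB. Each male Cyp2b13 point rests on at least 1 group with no mouse well above background and does not measure the size of a change.

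Whether the response to ATB depended on PXR was tested as the difference between both responses in males. It was 1.24 (95% CI 0.27 to 2.22) for Cyp2b10 and 0.78 (95% CI -0.11 to 1.68) for Cyp2b9, both positive, meaning a smaller fall in Pxr-/- mice, and neither passed (limma adjusted p 0.840 for both). Of the 3 genes, 0 were called by limma, and 1 had an unadjusted p under 0.05, against 0.0183% of all genes called. The 4 genes called in this test were Cyp3a11, Cyp3a16, Cyp3a41a and Cyp3a59, members of the Cyp3a family of drug-metabolising enzymes that PXR is known to induce. Whether the probes of these 4 paralogs measure separate RNAs was not tested. Cyp3a11 fell by 2.04 in Pxr+/+ males and read -0.20 (95% CI -0.57 to 0.17) in Pxr-/- males, a difference of 1.84 (95% CI 1.33 to 2.35, limma adjusted p 8.68e-05). The interval of Cyp2b10 in Pxr-/- males (-2.57 to -1.16) did not overlap that of Cyp3a11. Cyp3a11 is shown because it was called in this test, and the difference between the genes was not tested. The same test in females called 0 of the 3 genes and 0% of all genes, with 0 of 3 at an unadjusted p under 0.05.

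**Figure D3:**
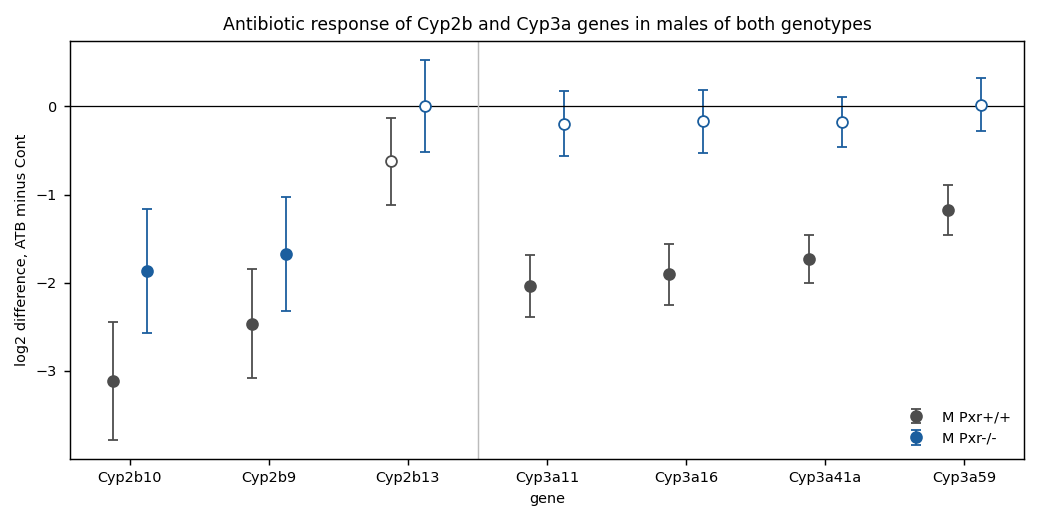
Log2 difference ATB minus Cont with 95% confidence interval (vertical axis) for the 3 Cyp2b genes and 4 Cyp3a genes in male Pxr+/+ and male Pxr-/- mice. Filled points passed the call rule. The 4 Cyp3a genes were picked because these data called a difference between both responses for them, so their pattern follows from that choice. They fell in Pxr+/+ males and lie near 0 in Pxr-/- males. Cyp2b10 and Cyp2b9 fell in both.

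In females, ATB called none of the 3 genes in either genotype (limma), with 0 and 1 of 3 at an unadjusted p under 0.05 in Pxr+/+ and Pxr-/-. In Pxr+/+ females the differences were -0.18 (95% CI -0.85 to 0.49) for the distal Cyp2b10 probe, -0.03 (95% CI -0.64 to 0.59) for Cyp2b9 and 0.24 (95% CI -0.25 to 0.74) for Cyp2b13. In Pxr-/- females they were -0.12, 0.14 and 0.55, and Cyp2b13 was the only one with an unadjusted p under 0.05 (limma adjusted p 0.366). Of all genes, 0.0137% were called in Pxr+/+ and 0.0274% in Pxr-/- females. None of these female intervals reached the falls measured in Pxr+/+ males for Cyp2b9 or Cyp2b10.

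The sex difference in the response was itself tested. In Pxr+/+ mice the ATB effect in males minus that in females was -2.93 (SE 0.47) for Cyp2b10 and -2.43 (SE 0.43) for Cyp2b9, with limma adjusted p of 0.00142 and 0.00684. So 2 of the 3 genes were called, where 0.0411% of all genes (9) were, the others being Cyp3a11, Cyp3a16, Cyp3a41a, Cyp3a59, Paip2b, Pknox1 and Tff3. The internal Cyp2b10 probe gave -1.27 and was not called (limma adjusted p 0.191). In Pxr-/- mice the difference was -1.75 (95% CI -2.72 to -0.78) for Cyp2b10 and -1.81 (95% CI -2.71 to -0.92) for Cyp2b9 and did not pass after adjustment (limma adjusted p 0.896 for both), with 2 of 3 genes at an unadjusted p under 0.05 and 0.00457% of all genes called.

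Loss of PXR without antibiotics did not move the family past the threshold in either sex. In male Cont mice the Pxr-/- minus Pxr+/+ difference was -0.86 (95% CI -1.51 to -0.21) for Cyp2b9 and -0.62 (95% CI -1.33 to 0.08) for the distal Cyp2b10 probe. No Pxr-/- male showed Cyp2b13 above background. The Pxr+/+ mean, with 4 of 6 males above background, was 1.30-fold over the lowest signal that counted as above background, and the difference was not called. The limma adjusted p was 0.823 or higher for all 3, with 2 of 3 at an unadjusted p under 0.05 and 0.187% of all genes called. In female Cont mice Cyp2b9 differed by -0.11, the distal Cyp2b10 probe by 0.13 and Cyp2b13 by -0.31, with 0 of 3 called by limma, 0 of 3 at an unadjusted p under 0.05 and 3.23% of all genes called. The internal Cyp2b10 probe read higher in Pxr-/- females, by 0.69 in Cont (95% CI 0.22 to 1.15, limma adjusted p 0.0834) and by 0.66 in ATB (95% CI 0.19 to 1.12, limma adjusted p 0.719), and the difference between the Cyp2b10 probes was not tested. Under ATB, 0 of 3 genes were called in males (0.932% of all genes) and in females (0.215%), with 0 of 3 at an unadjusted p under 0.05 in each (limma). The difference between the sexes in the effect of PXR loss called 0 of 3 genes in Cont (0.0229% of all genes) and in ATB (0.0457%), with 0 of 3 at an unadjusted p under 0.05 in each (limma).

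The difference between the sexes was measured in each genotype and treatment. In Pxr+/+ Cont mice Cyp2b9 ranged from 8.12 to 10.62 in males and from 15.43 to 15.88 in females (median 15.75), the distal Cyp2b10 probe from 9.59 to 11.42 and from 14.95 to 15.51 (median 15.22), and Cyp2b13 from 4.21 to 6.20 and from 13.48 to 14.25 (median 13.94). On each of these probes the highest male was below the lowest female. Here the male minus female difference was -6.05 for Cyp2b9, -4.51 for the distal Cyp2b10 probe and -2.56 for the internal one, corresponding to 66.3-fold, 22.9-fold and 5.89-fold higher signals in females. Cyp2b13 differed by -8.89, with 4 of 6 males above background. In Pxr+/+ ATB mice the values were -8.49 for Cyp2b9 and -7.44 for the distal Cyp2b10 probe, 359-fold and 174-fold, and Cyp2b13 was at least 703-fold higher in females. The internal Cyp2b10 probe gave -3.83, 14.3-fold, with 1 of 6 males above background on it, so the size for Cyp2b10 depended on the probe. The male and female values did not overlap in this pair of groups either.

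The same held without PXR. In Pxr-/- Cont mice Cyp2b9 differed by -6.80 and the distal Cyp2b10 probe by -5.26, and Cyp2b13 was at least 499-fold higher in females. In Pxr-/- ATB mice the differences were -8.61 and -7.01, and Cyp2b13 was at least 737-fold higher. The internal Cyp2b10 probe gave smaller differences, -3.56 in Pxr-/- Cont and -4.24 in Pxr-/- ATB mice, 11.8-fold and 18.9-fold. All 3 genes were called in each of the 4 comparisons, with limma adjusted p of 1.78e-14 or lower, where the share of all genes called higher in females was 30% in Pxr+/+ Cont, 13.7% in Pxr-/- Cont, 9.04% in Pxr+/+ ATB and 23.3% in Pxr-/- ATB. With quantile normalization in place of CrossNorm these 4 shares were 8.36%, 6.26%, 8.26% and 6.36%, and all 3 genes were again called in each. The macrophage markers (10 of 10 measured, among them Adgre1, Clec4f and Csf1r) had a list mean of 10.60 to 11.52 in Pxr+/+ Cont females and 9.62 to 10.08 in the males, with 9 of 10 called lower in males (7 with quantile normalization). In the same comparison 5 of 6 stellate and fibroblast markers and 6 of 10 pericentral genes were called lower in males (1 and 4 with quantile normalization). Of the macrophage markers, 4 of 10 were called lower in males in Pxr-/- Cont (2 with quantile normalization) and 5 of 10 in Pxr+/+ ATB. In Pxr-/- ATB mice 0 of 10 were called (limma), with a list median of -0.12. The list mean of these Pxr-/- ATB males ran from 8.79 to 11.32, and the highest value was that of replicate 1. The part of these markers in the sex difference of the Cyp2b genes was not tested.

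Within groups, the probes correlated to different degrees. Between the Cyp2b9 probe and the distal Cyp2b10 probe, Pearson r was 0.92 over the 23 males and 0.94 over the 24 females after group means were subtracted. The internal Cyp2b10 probe had r of 0.93 with Cyp2b9 over the males and 0.75 over the females. Both Cyp2b10 probes list transcripts that are also listed for the Cyp2b9 probe. For Cyp2b13 and Cyp2b9 r was 0.59 in males, where most Cyp2b13 signals were at background, and 0.81 in females. The lowest pair in males was Cyp2b13 with the distal Cyp2b10 probe, at 0.46, against 0.73 in females. These values share arrays and normalization and are given as a description.

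**Figure D4:**
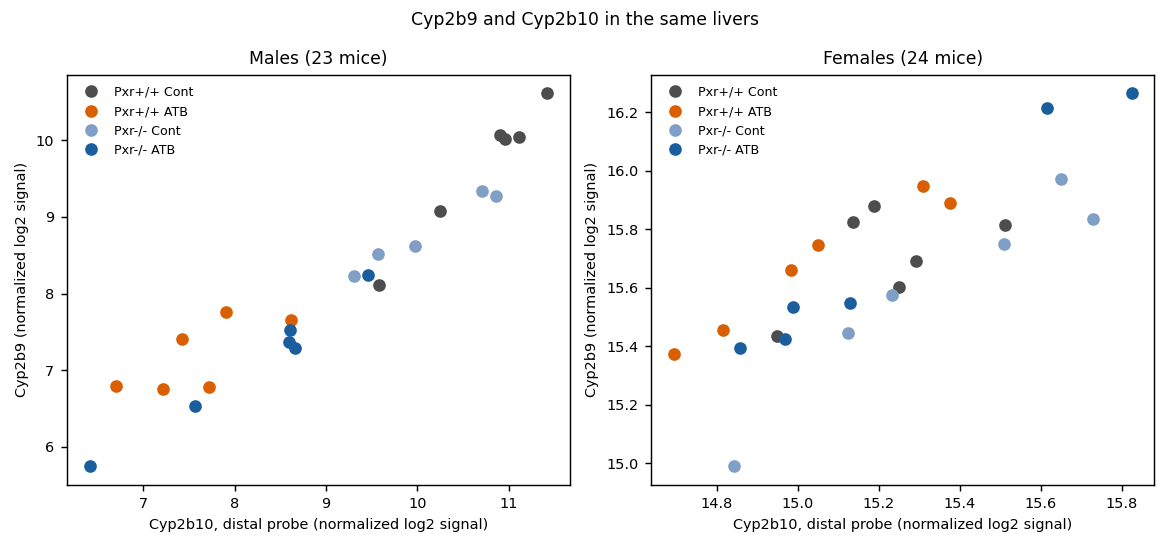
Cyp2b9 (vertical axis) against the distal Cyp2b10 probe (horizontal axis), both as normalized log2 signal, in the 23 males (left) and 24 females (right), coloured by genotype and treatment. The males spread along a line from low values in ATB to high values in Cont, and the female groups overlap.

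Correlations over all 47 mice include the difference between the sexes, so genes far higher in females rank high among them. On this measure the genes most like Cyp2b9 were Cyp2b10 (r 0.99), Cyp2b13 (0.98), Slc22a27 (0.97), Hao2 (0.97) and Sult2a2 (0.97). Those most like Cyp2b10 on its distal probe were Cyp2b9, Cyp2b13, Slc22a27, Hao2 and Sult2a6. The list for Cyp2b13 opened with 2 entries for Xist (0.99 each), the RNA of the inactive X chromosome, followed by Slc22a26, Sult2a2 and Sult2a6 (0.99 each). With group means subtracted, Cyp2b10 on its distal probe stayed most like Cyp2b9 (0.92), and the next genes were Tbx21 (0.61), Cyp2b13 (0.60), Cth (0.60) and Hgd (0.59). For the distal Cyp2b10 probe they were Tbx21 (0.60), Sulf2 (0.59), Aen (0.58) and Ass1 (0.58). The internal Cyp2b10 probe gave other genes after Cyp2b9 (0.81), namely Gls2 (0.62), Cyp2b13 (0.61), an unnamed chr2 transcript (0.61) and Gpt (0.61). For Cyp2b13 they were Tm2d2 (0.76), Cth (0.75), Hpgd (0.74), Gpt (0.73) and Fam46c (0.70).

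Of 10 genes encoding CAR, its partners and regulators, and PXR, 0 were called with ATB in males of either genotype (limma), and 0 had an unadjusted p under 0.05. Of all genes, 0.887% were called higher and 0.165% lower in Pxr+/+ males, and 0.0503% and 0.0594% in Pxr-/- males. Nr1i3, encoding CAR, differed by 0.18 in Pxr+/+ and 0.08 in Pxr-/- males, its partner Rxra by 0.19 and 0.14, and Nr1i2, the deleted gene, by 0.01 and -0.28. The coactivators Ncoa1, Ncoa2 and Ppargc1a, the liver factor Hnf4a, the corepressor Nr0b2 and the chaperones Dnajc7 and Hsp90ab1, which take part in holding CAR in the cytoplasm, read between -0.08 (Nr0b2) and 0.17 (Ncoa2) in Pxr+/+ males and between -0.48 (Ppargc1a) and 0.13 (Nr0b2) in Pxr-/- males. The 10 genes had a median of 0.11 in Pxr+/+ males, against 0.10 over all genes. After PXR loss in Cont mice 0 were called in either sex (limma), where 0.187% of all genes were in males and 3.23% in females. An unadjusted p under 0.05 was found for 1 of 10 in males and 2 of 10 in females. Nr1i3 averaged 10.88 ± 0.16 (SD, n = 6) in male Pxr+/+ Cont and 10.48 ± 0.15 (n = 5) in male Pxr-/- Cont mice, and 11.07 and 10.56 under ATB. The female means were 11.42 and 11.10 in Cont, and 11.65 and 11.60 under ATB. Between the sexes in Pxr+/+ Cont, 2 of 10 were called lower in males, Nr1i3 (-0.53) and Hsp90ab1 (-0.37), where 30% of all genes were, and 1 of 10 with quantile normalization, where 8.36% of all genes were.

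In Pxr+/+ males on ATB, 0.165% of all genes were called lower and 0.887% higher. Of 19 other known CAR targets measured, 3 were called lower there and 0 higher. These were Cyp3a11 (-2.04), Cyp2c55 (-1.08), a fatty acid and drug hydroxylase, and the carboxylesterase Ces2a (-0.48), while Cyp2a5 read 0.45, Gstm2 0.29, Cyp2c29 -0.03 and Aldh1a1 -0.08. In Pxr-/- males on ATB 0 of the 19 were called (limma), where 0.0594% of all genes were called lower and 0.0503% higher. Of the 19, 2 had an unadjusted p under 0.05, and Cyp2c55 read -0.07 and Ces2a -0.22. The list median was -0.03 in Pxr+/+ and -0.02 in Pxr-/- males, against 0.10 and 0.02 over all genes. Loss of PXR in male Cont mice raised Cyp2c55 (2.36), Akr1b7 (1.54), Ces2a (0.59) and Cyp2c29 (0.43) and lowered the transporter Slco1a4 (-2.92), beside -0.86 for Cyp2b9 and -0.62 for Cyp2b10, which were not called. In this comparison 4 of the 19 were called higher and 1 lower, where 0.155% and 0.032% of all genes were.

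Of 8 neighbouring Cyp2 genes of the chromosome 7 cluster, 0 were called with ATB in males of either genotype (limma), with 2 at an unadjusted p under 0.05 in Pxr+/+ and 0 in Pxr-/-. Of all genes, 0.887% were called higher and 0.165% lower in Pxr+/+ males, and 0.0503% and 0.0594% in Pxr-/- males. In Pxr+/+ males Cyp2g1 read 0.91, Cyp2a5 0.45, Cyp2a4 0.42, Cyp2a22 0.40, Cyp2a12 0.31, Cyp2t4 0.10, Cyp2f2 0.04 and Cyp2s1 -0.20, and Cyp2b19 and Cyp2b23 were not measured above the filter. Loss of PXR raised Cyp2g1 in male Cont mice by 2.07. In Pxr+/+ Cont mice 6 of the 8 were called higher in females, where 30% of all genes were, and 3 of the 8 with quantile normalization, where 8.36% were. They ran from Cyp2g1 (-2.62, male minus female) and Cyp2a4 (-1.75) to Cyp2a12 (-0.41), and Cyp2f2 was higher in males (0.42).

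Among 18 female-biased liver genes, 18 were called higher in Pxr+/+ Cont females, where 30% of all genes were. With quantile normalization 16 were, against 8.36% of all genes. With ATB in Pxr+/+ males, 2 of the 18 were called lower and 2 higher, where 0.165% and 0.887% of all genes were. Cyp3a16 (-1.90) and Cyp3a41a (-1.73) fell, and the estrogen sulfotransferase Sult1e1 was among those that rose (1.90), while Hao2 read -0.37 and Sult2a2 0.07. In Pxr-/- males 0 of the 18 were called (limma), with 1 at an unadjusted p under 0.05, where 0.0594% of all genes were called lower and 0.0503% higher. Of 16 genes listed as male-biased, 13 were called higher in Pxr+/+ Cont males (14 with quantile normalization), and with CrossNorm Cyp2u1, Moxd1 and Ugt2b38 were not. Of all genes, 2.17% were called higher in these males, and 7.01% with quantile normalization. With ATB, Gstp1 fell in Pxr+/+ males (-0.74) and in Pxr-/- males (-0.90). Moxd1, at 4.55 in male and 4.58 in female Pxr+/+ Cont mice and above background in 0 of 6 of those males, rose with ATB in Pxr-/- males (4.25). Of 9 growth hormone signalling genes, 0 were called with ATB in males (limma), near the shares of all genes given above for both genotypes. Of the 9, 3 had an unadjusted p under 0.05 in Pxr+/+ and 0 in Pxr-/- males, with Socs2 at 0.95 and Cish at 1.12 in Pxr+/+.

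Markers of other liver cells were read beside the falls in males. Of the 10 macrophage, 6 endothelial, 5 cholangiocyte, 6 stellate and fibroblast and 4 lymphocyte markers measured, 0 were called with ATB in males of either genotype (limma). Of all genes, 0.887% were called higher and 0.165% lower in Pxr+/+ males, and 0.0503% and 0.0594% in Pxr-/- males, so such counts are near the share of all genes. The macrophage list median was -0.22 in Pxr+/+ and 0.41 in Pxr-/- males, against 0.10 and 0.02 over all genes. Of the macrophage markers, 1 of 10 in Pxr+/+ and 3 of 10 in Pxr-/- males had an unadjusted p under 0.05. The macrophage list mean was 9.62 to 10.08 in Pxr+/+ Cont and 8.97 to 10.20 in Pxr+/+ ATB males, and 8.81 to 9.93 in Pxr-/- Cont and 8.79 to 11.32 in Pxr-/- ATB males. The highest value was that of Pxr-/- ATB replicate 1, one of the mice on which the Pxr-/- calls rest. Among the pericentral genes, a zone of the lobule where Cyp2b genes are known to be induced, Rhbg rose in both genotypes (0.69 and 1.12), and 5 of 10 in Pxr+/+ and 3 of 10 in Pxr-/- males had an unadjusted p under 0.05. Their list mean was 12.09 to 12.57 in Pxr+/+ Cont and 12.51 to 12.84 in Pxr+/+ ATB males, and 12.18 to 12.53 in Pxr-/- Cont and 12.40 to 12.82 in Pxr-/- ATB males. The part of these markers in the fall of Cyp2b9 and Cyp2b10 was not tested.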

How the data were processed

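Liver RNA of 47 mice was hybridised to 1-colour Agilent arrays with 56605 gene probes, and the authors deposited, per the file headers, 1 scanner output for each array (Agilent Feature Extraction 10.10.1.1) with spot intensity values, background, saturation and detection flags. The values used were the median spot intensity, without background subtraction, as deposited. The deposited table of log2 processed values (33383 rows) served as an alternative, since the authors' filter and centring of it were not fully stated.

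Intensities were log2 transformed. A probe was kept if 5 or more arrays of any 1 group had it well above background (32979 probes, 21877 genes), and 422 flagged spot values were left out. The effect of 3 wash batches was removed, arrays were normalized by CrossNorm (300 random stacks) as in the study's methods, and limma 3.58.1 (R 4.3.3) fitted the 8 groups together with the wash batch, with Benjamini-Hochberg adjustment over all probes. A call needed an adjusted p of at most 0.05 and a fold over 1.2. There were 12 contrasts and 6 differences between effects. A gene's lead probe was the one with the highest mean signal. Named genes were all members, the 5 genes most correlated with each member, over all mice and within groups, and genes of 14 lists by a rule on their calls. The members and lists were chosen with earlier results of these data known. The fit was tested on simulated data. The alternatives were quantile normalization, processed signals, normexp with quantile normalization, the deposited table, other filters, no wash batch, slide or replicate number as a block, only the groups compared, each wash batch alone, the other Cyp2b10 probe, and leaving out each mouse. Array number limits the precision. Promoters came from RefSeq (GRCm38.p6), with all 3 genes matched. Figures were drawn with matplotlib 3.10.9. One gene of the female-biased list is not reported here by name.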

Additional observations from a re-analysis of the deposited data

Results flagged for a closer look

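The response to ATB differed between the sexes in Pxr+/+ mice for Cyp2b9 (-2.43, male effect minus female effect on the log2 scale) and Cyp2b10 on the distal probe (-2.93), by the test of the difference itself (limma adjusted p of 0.00684 and 0.00142). The male Pxr+/+ Cont and ATB values did not overlap for either gene, and the female values did. The internal Cyp2b10 probe gave -1.27 (limma adjusted p 0.191). A Dixon ratio, the gap from the most extreme mouse to the next over the range of its group, flagged 0 of the 32 combinations of probe and group. The highest ratio was 0.607, for the internal Cyp2b10 probe in male Pxr+/+ ATB. With 5 or 6 mice per group this check has little power, and the calls in Pxr-/- males depended on single mice.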

How the results depend on the processing

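Results without a call were treated as having no direction. Of 72 results, no call was lost or turned under quantile normalization, processed signals, normexp with quantile normalization, the deposited table, no filter, no wash batch or slide as a block, and of the 36 results on probes above background on every array none changed. Calls were gained for Cyp2b13 with ATB in Pxr+/+ males with processed signals (-2.12) and for the internal Cyp2b10 probe in Cont females without PXR with normexp (0.78), in Pxr-/- males on ATB with quantile normalization (-1.11), processed signals (-2.30) and the deposited table (-1.08), and in the sex difference of the ATB response in Pxr+/+ mice with processed signals (-3.70). Fitting only the groups compared lost the ATB calls in Pxr-/- males (Cyp2b9 -1.74, Cyp2b10 -1.96). The internal probe in place of the distal one lost the calls of Cyp2b10 with ATB in Pxr-/- males (-1.06) and of its sex difference in the ATB response in Pxr+/+ mice (-1.27). Leaving out each mouse in turn gave -1.90 to -1.36 for Cyp2b9 and -2.11 to -1.44 for Cyp2b10 with ATB in Pxr-/- males, with the losses named in the report, and -2.79 to -2.24 and -3.35 to -2.93 in Pxr+/+ males, all called. The median of all genes moved from 0.10 to -0.00 with quantile normalization for ATB in Pxr+/+ males and from -0.20 to 0.01 for the sex difference in Pxr+/+ Cont. Genes called in all were then 253 in place of 230 and 3363 in place of 7032, and 238 in place of 707 for PXR loss in female Cont.

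Within single wash batches, where batch 3 held 1 mouse per group, no test was made and some values moved. For Cyp2b9 they were -2.09 (PXR loss, male Cont, batch 3), -1.90 (male ATB, batch 3), 0.68 (female ATB, batch 2), -0.98 and -2.77 (ATB, male Pxr-/-, batches 2 and 3), and for male minus female -6.75 and -4.99 (Pxr+/+ Cont, batches 2 and 3), -6.09 (Pxr-/- Cont, batch 1) and -9.80 (Pxr-/- ATB, batch 3). For distal Cyp2b10 they were 0.010 and -1.85 (PXR loss, male Cont, batches 1 and 3), 1.29 and -2.20 (male ATB, batches 1 and 3), 0.85 (female ATB, batch 2), -1.04 and -3.15 (ATB, male Pxr-/-, batches 2 and 3), and for male minus female -3.83 (Pxr+/+ Cont, batch 3), -4.37 and -6.16 (Pxr-/- Cont, batches 1 and 3), -6.69 (Pxr+/+ ATB, batch 3), -6.37 and -8.71 (Pxr-/- ATB, batches 1 and 3). For Cyp2b13 they were -0.11 and -1.16 (PXR loss, male Cont, batches 2 and 3), 0.46 (female Cont, batch 3), 0.92 and -0.88 (female ATB, batches 2 and 3), -0.22 and 0.91 (ATB, female Pxr+/+, batches 2 and 3), -0.43 (ATB, female Pxr-/-, batch 3), -10.13 (male minus female, Pxr-/- Cont, batch 3) and -10.24 (Pxr+/+ ATB, batch 3), the Cyp2b13 values with males resting on mice not above background, so that they do not measure a size. The cause was not tested.

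The replicate numbers did not pair the samples, since in no comparison did every pair correlate over 0.1 (r from -0.34 to 0.55), and the fit with the replicate number as a block changed none of the 72 results. For Cyp2b10 with ATB it gave -3.11 in Pxr+/+ and -1.82 in Pxr-/- males, and genes called in all were 206 in place of 230 and 22 in place of 24, while for ATB in Pxr+/+ females they were 1 in place of 3. Background not subtracted compresses changes of dim probes, which are the internal Cyp2b10 probe and Cyp2b13 in males.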
